A study of Mus musculus with 6 samples.

Results

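The genes described here encode the vacuolar proton pump (V-ATPase) of lysosomes and the machinery that reports nutrients from the lysosome to the growth kinase complex mTORC1 and to the transcription factors TFEB and TFE3. They were chosen by symbol from the mRNA tables, as 39 genes in 10 role groups, and 38 of the 39 were listed among 11609 mRNA genes. The missing one, Atp6v1g2, is not listed in the tables and has no value here. All 38 listed genes were above 1 FPKM (fragments per kilobase of transcript, scaled to the mapped fragments of the library, so a level per transcript length) in at least 3 libraries and were therefore tested, among 10590 genes in all.

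The RNA came from N2a, a neuroblastoma line of the mouse, after differentiation with 10 µM retinoic acid for 96 h in medium holding 2% serum. All 6 libraries share the line and the retinoic acid. The 3 control libraries are from cells kept with DMSO as the solvent, and 3 others from cells exposed for 24 h to 5 µM RSL3, a covalent inhibitor of the lipid peroxidase GPX4 that triggers ferroptosis. The labels do not say whether replicates were separate cultures, so p-values measure only the spread between libraries, which may be technical.

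The V-ATPase is built from a membrane sector, V0, through which protons pass, and a cytosolic sector, V1, which hydrolyses ATP, and together they acidify the lysosome. On the lysosomal surface the pump binds Ragulator, a scaffold that anchors the Rag GTPases. When amino acids are plentiful the Rags recruit mTORC1, where the GTPase Rheb activates it. Folliculin with FNIP1 or FNIP2 is the GTPase-activating complex for RagC and RagD, and active mTORC1 keeps TFEB and TFE3 in the cytosol. When the kinase is off, both factors enter the nucleus and switch on genes of the lysosome through an E-box element, and V-ATPase subunits are among their known targets.

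The libraries differed in several respects that touch the results below. The summed mRNA values ranged from 220605 to 225295 FPKM with DMSO and from 200135 to 213765 FPKM with RSL3, and depth cannot be read from FPKM. Across genes, the deviation of a library from its group mean went with the GC content of the transcript at a Spearman correlation of 0.69 in RSL3 replicate 1, -0.69 in replicate 2 and -0.30 in replicate 3. Gm26917 and Gm42418, lncRNAs that overlap ribosomal RNA sequence, summed to 1.42 times the DMSO level in the RSL3 libraries. Of 10 neuronal markers 7 were listed, Nefl, Nefm and Dcx were not, and of the 7 tested 1 fell. All 8 neuroblast markers were listed, and 3 of the 7 tested fell. Of 13 liver markers all were listed, 1 of them at 0 in a library, and 11 of 11 tested fell. Over all genes tested 3.92% fell. Serpina1a, Fga and Fgb were under 1 FPKM in every RSL3 library and entered the test only through the DMSO libraries. For them the filter had fixed the direction. The 13 liver markers summed to 68.7 to 99.1 FPKM with DMSO and 17.1 to 31.0 FPKM with RSL3. Glial markers (2 of 8 listed, 1 of them at 0 in a library) summed to at most 2.55 FPKM, fibroblast markers (2 of 7 listed) to at most 5.02 and macrophage markers (1 of 7 listed) to at most 0.606. With single libraries left out, 0 to 2 neuronal, 2 to 5 neuroblast and 4 to 11 liver markers fell. The neuronal count was 0 and the neuroblast count 2 without DMSO replicate 1, 2 or 3. In those fits 105, 84 and 90 of 10511, 10508 and 10516 genes tested fell. The neuroblast count was 5 without RSL3 replicate 1, where 756 of 10525 genes fell. The liver count was 4, of 8 tested, without DMSO replicate 2 or 3. What part these differences have in the results for the pump and its sensors was not tested.

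Most of the 38 genes were well expressed, and 35 had a mean above 5 FPKM over the 6 libraries. The highest were the V1 stalk subunit gene Atp6v1g1 at 89.4 FPKM and the V0 subunit gene Atp6v0d1 at 86.9 FPKM, and then came Atp6v1b2 at 42.7, Atp6v0e2 at 41.6 and Lamtor5 at 39.3 FPKM. Lowest were the arginine sensor gene Slc38a9 at 1.33 FPKM, Tfeb at 2.45 and Atp6v0a2 at 3.12 FPKM. The means of the V-ATPase genes ran from 3.12 to 89.4 FPKM and those of the sensors and regulators from 1.33 to 39.3 FPKM.

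**Figure D1:**
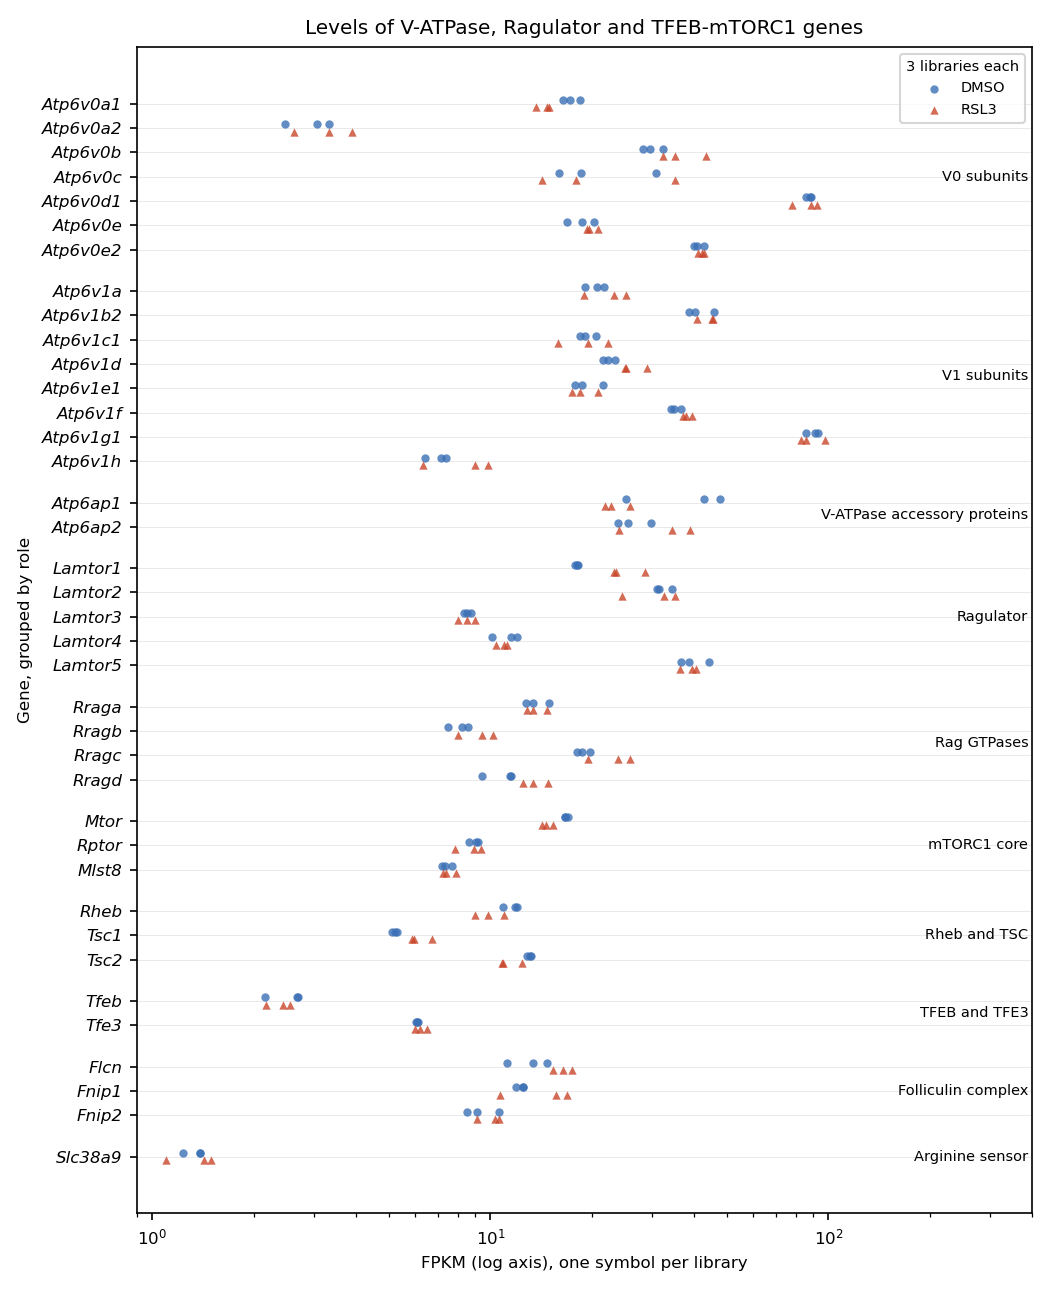
Level of each of the 38 listed genes in FPKM on a log axis, with 1 blue circle per DMSO library and 1 red triangle per RSL3 library, grouped by role. Atp6v1g1 and Atp6v0d1 stand near 90 FPKM and Slc38a9 near 1 FPKM. The symbols of both groups are intermixed in most rows. In 6 rows, that of Lamtor1 among them, all RSL3 symbols are higher, and in 3 rows all are lower.

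Of the 38 genes, 1 rose with RSL3, the Ragulator gene Lamtor1, and 0 fell (limma, Benjamini-Hochberg adjusted p under 0.05). Over all 10590 genes tested 6.38% passed, 2.46% higher and 3.92% lower, so 1 of 38 upward is close to the share of the whole table. At an unadjusted p under 0.05 there were 7 higher and 4 lower, where the whole table had 9.86% higher and 14.3% lower. The groups did not overlap for 9 genes, 6 with all RSL3 libraries higher and 3 with all of them lower, while 33% of all genes were separated in this way, 13.4% upward and 19.6% downward. The median log2 difference (RSL3 minus DMSO, on the log2(FPKM + 1) scale) was 0.023 over the 38 genes and -0.031 over all genes. A lower level in these bulk libraries could mean fewer cells of a kind or less RNA per cell, which cannot be told apart.

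The design sets the pump against the sensors. The 17 V-ATPase genes had a median log2 difference of 0.081, with 10 above 0 and 7 below, and 0 passed. The 21 nutrient-sensing regulators had a median of 0.00, with 11 above 0 and 10 below, and 1 passed. With single libraries left out, the pump median ran from 0.02 to 0.14 and that of the regulators from -0.01 to 0.04, each lowest without DMSO replicate 3 and highest without DMSO replicate 2. By library, the median of the pump genes stood at -0.02, 0.12 and 0.08 from the DMSO mean in RSL3 replicates 1, 2 and 3, and that of the regulators at -0.01, 0.07 and 0.06. In the DMSO libraries the pump median itself ran from -0.08 to 0.08 and the regulator median from -0.04 to 0.04. All genes tested had medians of -0.10, 0.01 and 0.01 in the same RSL3 replicates, so the lowest value of both classes and of the whole table was in replicate 1. Of the RSL3 values of the classes only that of the pump in replicate 2, and those of the regulators in replicates 2 and 3, lay outside the DMSO range.

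**Figure D2:**
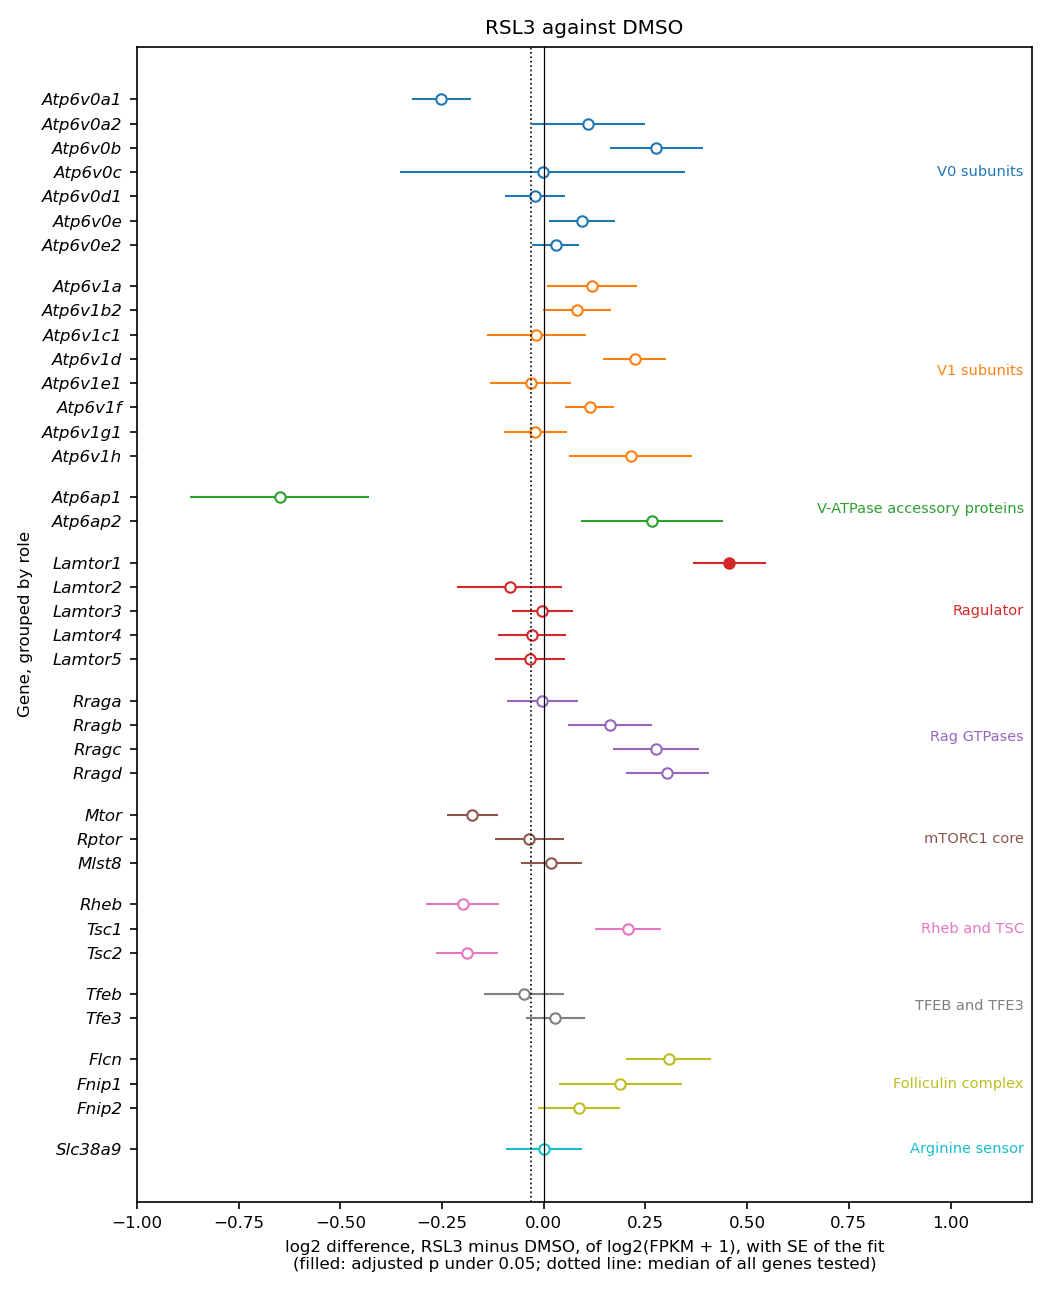
Log2 difference between RSL3 and DMSO for each listed gene, with error bars of 1 SE from the fit over all genes, grouped by role. The filled symbol marks Lamtor1, which passed, at 0.46. The lowest point is Atp6ap1 at -0.65, with the widest error bar but that of Atp6v0c.

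Lamtor1 encodes the lipid-anchored Ragulator subunit that ties the whole scaffold to the lysosomal membrane (ENSMUSG00000030842.12, chr7:101905904-101926675, plus strand, GRCm38). It stood at 17.8, 18.1 and 18 FPKM in the DMSO libraries and at 28.6, 23.5 and 23.2 FPKM in the RSL3 libraries. All RSL3 libraries were above all DMSO libraries, the controls were close together, and RSL3 replicate 1 was the highest. The mean rose from 18 ± 0.146 to 25.1 ± 3.02 FPKM (SD, n = 3), a ratio of 1.40 and a log2 difference of 0.46 ± 0.09 (SE, adjusted p = 0.0296). The call was kept without RSL3 replicate 1 (0.36, adjusted p = 0.00844) and without RSL3 replicate 2 (0.50, adjusted p = 0.0372), fits in which 4.94% and 2.76% of all genes rose. It was lost without DMSO replicate 1, 2 or 3 (0.45 to 0.46, adjusted p = 0.122 to 0.134), without RSL3 replicate 3 (0.51, adjusted p = 0.0712) and with median-ratio scaling (0.49, adjusted p = 0.0506). Over all genes 60, 59 and 47 rose without DMSO replicates 1, 2 and 3, and 56 without RSL3 replicate 3. With median-ratio scaling 298 of 10585 rose, against 261 of 10590 in the main fit. Exons of Lamtor1 share 600 bases, 18.7% of its exon bases, with the gene Lrrc51 on the opposite strand. Lrrc51 was at 1.87 to 3.14 FPKM over the 6 libraries with a log2 difference of 0.06 ± 0.15 (adjusted p = 0.841), and the sources used here do not say whether reads were counted by strand.

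The promoter of Lamtor1 is shown because Lamtor1 was the gene that passed and its window holds an E-box of the kind that TFEB and TFE3 bind. The same element is in the windows of other genes named below that did not pass. The 250 bases before its RefSeq start, chr7:101905587-101905836 on the plus strand of GRCm38.p6, carry TCACGTG in capitals, beginning 69 bases before the start.

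Lamtor1: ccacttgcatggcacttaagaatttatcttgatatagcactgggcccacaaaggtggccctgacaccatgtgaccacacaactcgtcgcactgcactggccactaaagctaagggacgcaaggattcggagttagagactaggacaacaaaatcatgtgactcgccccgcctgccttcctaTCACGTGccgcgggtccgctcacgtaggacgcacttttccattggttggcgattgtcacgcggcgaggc

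RefSeq windows from 250 bases before to 50 bases after the start were found for 33 of the 39 genes. The core CACGTG, the same on both strands, was in 10 of the 33, or 30.3%, and in 8.09% of 27025 genes. The 27025 are all genes with a window, also those not expressed here, so they are unlike the 33. Of the 10590 genes tested, 1017 were found with the core, though some of the 10590 may lack a window. All 10 carried it with the flanking base that TFEB and TFE3 prefer, as TCACGTG or its reverse complement CACGTGA, which 4.29% of all genes hold. They are Atp6v0b, Atp6v0d1, Atp6v0e and Atp6v1a of the pump, Lamtor1 and Lamtor4 of Ragulator, the Rag genes Rragb and Rragc, Rheb, and Fnip1 of the folliculin complex. The full 10-base palindrome of the CLEAR element, the same core with both flanks, was in 0 of the 33 and in 0.37% of all genes. The antioxidant response element TGACNNNGC, which NRF2 binds, was in 6 of the 33 (18.2%) and in 14.0% of all genes, searched on both strands. A match is only a run of letters in this window, with no measure of binding.

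Stretches around the match in another 5 genes, chosen after their values were seen, show the same E-box in front of other genes of the pump and its sensors. Capitals mark TCACGTG or its reverse complement CACGTGA, and each run is written 5′ to 3′ along the gene from RefSeq on GRCm38.p6.

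Rragc: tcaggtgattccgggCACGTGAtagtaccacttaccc

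Fnip1: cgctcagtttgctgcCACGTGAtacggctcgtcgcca

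Atp6v0b: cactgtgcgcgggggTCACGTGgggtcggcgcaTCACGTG

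Lamtor4: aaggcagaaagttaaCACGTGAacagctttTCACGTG

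Rheb: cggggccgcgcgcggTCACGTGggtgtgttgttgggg

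These runs lie at chr4:123917306-123917342 (plus strand) for Rragc, chr11:54438089-54438125 (plus) for Fnip1, chr4:117887342-117887381 (minus) for Atp6v0b, chr5:138255347-138255383 (plus) for Lamtor4 and chr5:24842437-24842473 (minus) for Rheb. Atp6v0b and Lamtor4 hold the element at 2 places within 40 bases. The log2 differences of these genes were 0.28 for Rragc, 0.19 for Fnip1, 0.28 for Atp6v0b, -0.03 for Lamtor4 and -0.20 for Rheb, and none of the 5 passed. The 10 genes with TCACGTG had a median log2 difference of 0.14 and the 22 tested genes whose window lacks it a median of 0.00, while 613 tested genes with the element had a median of 0.00 over the whole table. These medians are descriptions, with no test.

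None of the 7 V0 genes passed, with log2 differences from -0.25 to 0.28 and a median of 0.029. Atp6v0a1 encodes the neuronal form of the large proton-channel subunit a (chr11:101009452-101063719, plus strand). Its values were 16.4, 18.4 and 17.2 FPKM with DMSO and 13.6, 14.9 and 14.7 FPKM with RSL3, and every RSL3 library was lower. Its log2 difference of -0.25 ± 0.07 (adjusted p = 0.0873) was the closest to the threshold of all pump genes. The sister gene Atp6v0a2 had means of 2.96 ± 0.448 and 3.29 ± 0.641 FPKM (SD, n = 3) in overlapping groups.

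Atp6v0b, which encodes a proteolipid of the rotating ring, had means of 30.1 ± 2.11 and 36.9 ± 5.84 FPKM (SD, n = 3; log2 difference 0.28 ± 0.11, adjusted p = 0.195). Of its RSL3 libraries, which ran from 32.3 to 43.5 FPKM, the lowest lay just inside the DMSO range. Atp6v0c, the main ring proteolipid, was at 15.9, 30.8 and 18.5 FPKM with DMSO and at 35.2, 17.9 and 14.2 FPKM with RSL3. In each group 1 library was far above the others, DMSO replicate 2 and RSL3 replicate 1, and the groups overlapped throughout. The log2 difference was 0.00 ± 0.35 (adjusted p = 0.998), the widest error of any gene here. The annotation holds 2 processed pseudogenes of it, Atp6v0c-ps1 and Atp6v0c-ps2, so that its reads may be shared and its level is uncertain.

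Atp6v0d1, which couples the ring to the central stalk, held 88.5, 88.2 and 85.7 FPKM with DMSO and 77.8, 88.8 and 92.5 FPKM with RSL3. The RSL3 libraries lay on both sides of the controls (log2 difference -0.02 ± 0.07, adjusted p = 0.894). The small membrane subunit has alternative genes, Atp6v0e and the brain-enriched Atp6v0e2. Atp6v0e was at 18.6, 20.3 and 16.9 FPKM with DMSO and 19.6, 19.3 and 20.8 FPKM with RSL3. Atp6v0e2 was at 39.9, 42.9 and 40.9 FPKM with DMSO and 42.3, 41.2 and 42.7 FPKM with RSL3. Both overlapped between groups, at 0.10 ± 0.08 (adjusted p = 0.526) and 0.03 ± 0.06 (adjusted p = 0.804), and Atp6v0e2 was above Atp6v0e in all 6 libraries.

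In the V1 sector 8 of 9 genes were listed, 0 passed, and the median log2 difference was 0.097, with 5 above 0 and 3 below. The catalytic subunit gene Atp6v1a was at 20.6, 21.7 and 19.1 FPKM with DMSO and 18.9, 25.2 and 23.2 FPKM with RSL3. Its partner in the ATP-hydrolysing ring, Atp6v1b2, was at 40.2, 45.7 and 38.6 FPKM with DMSO and 40.7, 45.6 and 45.3 FPKM with RSL3. Both overlapped between groups, with log2 differences of 0.12 ± 0.11 (adjusted p = 0.565) and 0.08 ± 0.08 (adjusted p = 0.611).

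Atp6v1d, the rotor shaft, and the stalk gene Atp6v1f were the V1 genes whose groups were apart. Atp6v1d (chr12:78840725-78861638, minus strand) ran from 21.6 to 23.4 FPKM with DMSO and from 25.0 to 29.0 FPKM with RSL3 (log2 difference 0.22 ± 0.08, adjusted p = 0.137). Atp6v1f (chr6:29467718-29470512, plus strand) ran from 34.1 to 36.7 FPKM and from 37.0 to 39.6 FPKM (0.11 ± 0.06, adjusted p = 0.305). The stator genes Atp6v1c1, Atp6v1e1 and Atp6v1g1 lay within 0.04 of 0 on the log2 scale, at -0.02, -0.03 and -0.02, and each overlapped between groups. Their means were 19.3, 19.3 and 90.0 FPKM with DMSO and 19.2, 18.9 and 88.8 FPKM with RSL3.

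Atp6v1h, the regulatory subunit that joins V1 to V0, was at 7.16, 7.41 and 6.40 FPKM with DMSO and 6.31, 9.84 and 8.99 FPKM with RSL3. RSL3 replicates 2 and 3 were above every control and replicate 1 was below every control. The log2 difference was 0.21 ± 0.15 (adjusted p = 0.435), and 0.38 (adjusted p = 0.0318) without RSL3 replicate 1. Without RSL3 replicate 2 it was 0.10 (adjusted p = 0.687).

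Of the 2 accessory membrane proteins of the pump, neither passed. Atp6ap1 (chrX:74297097-74304721, plus strand), which assists assembly of the pump, was at 42.7, 47.9 and 25.1 FPKM with DMSO and 21.8, 22.7 and 25.8 FPKM with RSL3. DMSO replicates 1 and 2 were far above the RSL3 libraries, and DMSO replicate 3 was among them. This was the largest difference of any gene described here, -0.65 ± 0.22 on the log2 scale, with a ratio of 0.607 and an adjusted p of 0.128. Without DMSO replicate 3 it was -0.92 (adjusted p = 0.0284), and without DMSO replicate 2 it was -0.47 (adjusted p = 0.336). Atp6ap2, the (pro)renin receptor, was at 25.5, 29.9 and 23.9 FPKM with DMSO and 24.0, 39.0 and 34.4 FPKM with RSL3. Replicates 2 and 3 of RSL3 were above every control and replicate 1 was at their lower end (0.27 ± 0.17, adjusted p = 0.400). The difference was 0.46 (adjusted p = 0.0384) without RSL3 replicate 1 and 0.12 (adjusted p = 0.652) without RSL3 replicate 2.

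Beyond Lamtor1, Ragulator showed little difference. Lamtor2 and Lamtor3, the pair of roadblock-fold subunits, had log2 differences of -0.08 ± 0.13 and 0.00 ± 0.07, from means of 32.4 and 8.53 FPKM with DMSO and 30.8 and 8.51 FPKM with RSL3. The other pair, Lamtor4 and Lamtor5, had -0.03 ± 0.08 and -0.03 ± 0.09, from means of 11.2 and 39.9 FPKM with DMSO and 10.9 and 38.8 FPKM with RSL3. Adjusted p of these 4 genes was 0.741 to 0.983 and the groups of each overlapped. The median of the 5 subunits was -0.029.

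The Rag GTPases work as pairs of RagA or RagB with RagC or RagD, and Rragc and Rragd were each higher in the RSL3 libraries without passing. Rragc (chr4:123917446-123936997, plus strand) was at 18.7, 19.7 and 18 FPKM with DMSO and 19.5, 25.9 and 23.8 FPKM with RSL3. RSL3 replicate 1 was inside the control range and the other RSL3 libraries were above it (0.28 ± 0.11, adjusted p = 0.168, and 0.39 with an adjusted p of 0.0157 without RSL3 replicate 1). Rragd (chr4:32983037-33022180, plus strand) was at 11.5, 11.4 and 9.45 FPKM with DMSO and 12.5, 13.4 and 14.8 FPKM with RSL3. Every RSL3 library was above every control, at a log2 difference of 0.30 ± 0.10 (adjusted p = 0.124). For the partners, Rraga had means of 13.7 ± 1.12 and 13.6 ± 1.01 FPKM, and Rragb 8.11 ± 0.562 and 9.22 ± 1.13 FPKM (SD, n = 3).

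The share of a paralog within its pair does not depend on the scale of a library. It can still move with the GC trend of a library where paralogs differ in GC content, as Rragb (44.0%) and Rraga (48.7%) do. Of 7 planned pairs 6 could be computed, the pair with Atp6v1g2 not being among them. Rragb made up 38.0%, 36.6% and 37.1% of the summed FPKM of Rragb and Rraga with DMSO and 38.6%, 41.0% and 41.3% with RSL3. The groups did not overlap, with means of 37.2% ± 0.69 and 40.3% ± 1.49 (SD, n = 3; exact two-sided permutation p = 0.1, the smallest that 3 against 3 can give; 0.6 adjusted over the 6 pairs). Atp6v0a2 took 14.6% ± 2.18 of the a subunit pair with DMSO and 18.6% ± 2.97 with RSL3 (exact permutation p = 0.2). In the other 4 pairs the means differed by at most 1.76 percentage points, at exact permutation p-values of 0.4 to 0.7.

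Within mTORC1 the kinase gene Mtor (chr4:148448611-148557683, plus strand) was at 16.6, 17.0 and 16.6 FPKM with DMSO and 14.6, 14.2 and 15.3 FPKM with RSL3. Every RSL3 library was below every control, at a log2 difference of -0.18 ± 0.06 and an adjusted p of 0.145. Rptor, the scaffold Raptor that binds substrates and the Rags, was at 9.16, 9.04 and 8.64 FPKM with DMSO and 8.92, 7.84 and 9.40 FPKM with RSL3, in overlapping groups (-0.04 ± 0.08, adjusted p = 0.841). Mlst8, a stabilising subunit shared with mTORC2, had means of 7.41 ± 0.267 and 7.52 ± 0.361 FPKM (SD, n = 3). Exons of Mlst8 share 22.5% of their bases with the opposite-strand gene Bricd5.

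Rheb, the GTPase that switches mTORC1 on, was at 12.0, 11.8 and 10.9 FPKM with DMSO and 9.00, 11.0 and 9.84 FPKM with RSL3. Only RSL3 replicate 2 reached the control range (-0.20 ± 0.09, adjusted p = 0.223). The subunits of its inhibitor, the tuberous sclerosis complex, stood on opposite sides. Tsc1 (chr2:28641228-28691167, plus strand) averaged 5.21 ± 0.0888 FPKM in the controls and 6.17 ± 0.466 FPKM in the RSL3 libraries (SD, n = 3; log2 difference 0.21 ± 0.08, adjusted p = 0.173), with every RSL3 library higher. Tsc2 (chr17:24595816-24632630, minus strand), the GTPase-activating subunit, was at 12.8, 13.2 and 13.1 FPKM with DMSO and 10.8, 10.9 and 12.4 FPKM with RSL3. Its RSL3 libraries were all lower (-0.19 ± 0.08, adjusted p = 0.188).

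The genes of the transcription factors differed little. Tfeb was at 2.16, 2.70 and 2.67 FPKM with DMSO and 2.44, 2.17 and 2.55 FPKM with RSL3 (-0.05 ± 0.10, adjusted p = 0.809). Tfe3 was at 6.12, 6.04 and 6.08 FPKM with DMSO and 6.51, 5.99 and 6.17 FPKM with RSL3 (0.03 ± 0.07, adjusted p = 0.853). Both overlapped between groups, and Tfe3 was above Tfeb in every library. Neither value bears on where the proteins are in the cell.

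Folliculin, encoded by Flcn (chr11:59791408-59810016, minus strand), lets mTORC1 act on TFEB and TFE3. It was at 14.7, 13.4 and 11.2 FPKM with DMSO and 15.3, 16.4 and 17.4 FPKM with RSL3, with every RSL3 library higher (0.31 ± 0.10, adjusted p = 0.129). Its binding partner Fnip1 was at 11.9, 12.5 and 12.5 FPKM with DMSO and 10.7, 16.8 and 15.6 FPKM with RSL3. RSL3 replicate 1 was the lowest of all libraries and the other RSL3 libraries were the highest (0.19 ± 0.15, adjusted p = 0.499). The difference was 0.37 (adjusted p = 0.0142) without RSL3 replicate 1 and 0.07 (adjusted p = 0.777) without RSL3 replicate 2. The alternative partner Fnip2 was at 9.12, 10.6 and 8.50 FPKM with DMSO and 9.14, 10.6 and 10.3 FPKM with RSL3, in overlapping groups (0.09 ± 0.10, adjusted p = 0.654).

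Slc38a9, the lysosomal transporter that senses arginine, was the lowest of all. Its values were 1.38, 1.38 and 1.23 FPKM with DMSO and 1.10, 1.49 and 1.42 FPKM with RSL3, with a log2 difference of 0.00 ± 0.09 (adjusted p = 0.998). At such levels the added 1 FPKM shrinks a log2 difference.

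Without RSL3 replicate 1, 5 of the 38 rose, namely Lamtor1, Rragc, Fnip1, Atp6v1h and Atp6ap2, while 4.94% of all genes tested did, against 2.46% with all libraries. Apart from Lamtor1, each of these had its lowest RSL3 value in that replicate. The GC contents of the 5 transcripts were 48.9% for Lamtor1, 47.0% for Rragc, 38.9% for Fnip1, 37.6% for Atp6v1h and 40.5% for Atp6ap2. With the length and GC trends removed from every library, Lamtor1 (0.48, adjusted p = 0.0153), Atp6v1d (0.29, adjusted p = 0.0367) and Atp6v1h (0.30, adjusted p = 0.0399) rose. In the same fit Atp6v0a1 (-0.22, adjusted p = 0.0493) and Mtor (-0.27, adjusted p = 0.0375) fell. Over all genes 4.11% rose and 7.96% fell in that fit. Without DMSO replicate 3, 1 gene fell, Atp6ap1, where 0.856% of all genes fell, and 0 rose.

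**Figure D3:**
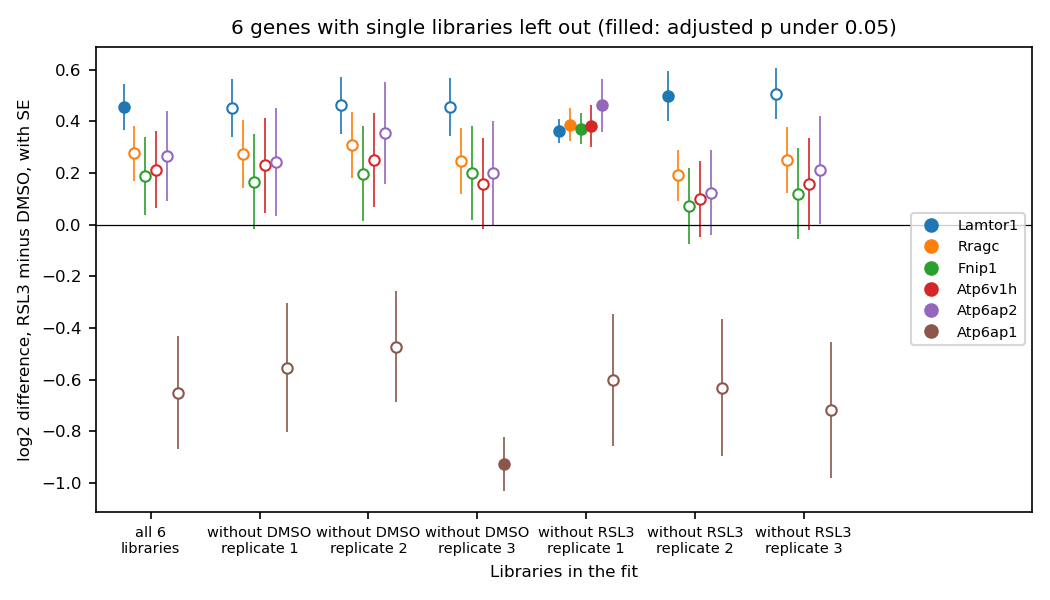
Log2 difference between RSL3 and DMSO for the genes that passed in the fit of all 6 libraries or in at least 1 fit with a single library left out, with 1 symbol per fit and a filled symbol where the gene passed. Rragc, Fnip1, Atp6v1h and Atp6ap2 are filled only without RSL3 replicate 1, and Atp6ap1 only without DMSO replicate 3, at -0.92.

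Other genes of the pathway, written down as 8 lists of 53 genes, were listed in 43 cases and tested in 41, of which 4 rose and 0 fell, with a median log2 difference of 0.019, while 2.46% of all genes rose. None of the 4 calls held when any 1 DMSO library, or RSL3 replicate 3, was left out, fits in which 47 to 60 genes of the whole table rose. Tcirg1, a further form of the a subunit known from osteoclasts, was at 2.29, 2.48 and 2.26 FPKM with DMSO and 3.47, 3.16 and 3.75 FPKM with RSL3. All its RSL3 libraries were higher (0.41 ± 0.09, adjusted p = 0.0366). Among 10 genes for assembly and regulation of the pump, Tldc1, which encodes a TLDc-domain protein, was at 3.74, 3.80 and 3.54 FPKM with DMSO and 5.62, 5.16 and 5.16 FPKM with RSL3. It too was higher in every RSL3 library (0.43 ± 0.08, adjusted p = 0.0232). The calls of Tcirg1 and Tldc1 were each kept when RSL3 replicate 1 or 2 was left out, and that of Tcirg1 was lost with length and GC trends removed. Of 7 tested genes of mTORC1 and mTORC2, the mTORC1 inhibitor gene Ddit4 rose, with 104 to 114 FPKM in the controls and 131 to 147 FPKM in the RSL3 libraries. Its call was kept without RSL3 replicate 1 or 2 and lost with median-ratio scaling and with no mean-variance trend. Of 7 tested mTORC1 substrates, the phosphatidate phosphatase gene Lpin1 rose, with 6.34 to 6.93 FPKM in the controls and 8.56 to 8.83 FPKM in the RSL3 libraries. Among the fits without 1 library, its call held in that without RSL3 replicate 1 alone. Among the amino acid sensing complexes upstream of the Rags, 0 of 7 GATOR1 and KICSTOR genes, 0 of 5 GATOR2 genes and 0 of 3 sestrin and CASTOR genes passed in limma. At an unadjusted p under 0.05 these 3 lists held 1, 1 and 0 genes, each lower. Some alternatives called a gene of these lists, named after its values were seen. The GATOR2 gene Sec13 (limma adjusted p = 0.0567 with all libraries) fell with a filter of 5 FPKM and without RSL3 replicate 1. In those fits 422 of 6810 and 756 of 10525 genes fell. Sesn2 fell with length and GC trends removed, where 7.96% of all genes fell.

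Genes that TFEB is known to activate, called lysosomal targets here, formed a list of 28. Most are of the lysosome, but Sqstm1, Uvrag, Wipi1, Vps11 and Vps18 are genes of autophagy or trafficking. The 27 that were tested had a median log2 difference of 0.23. Of the 27, 8 rose and 0 fell, against 2.46% and 3.92% of all genes. All RSL3 libraries were above all controls for 18 and below for 2, against 13.4% and 19.6% of all genes. By RSL3 replicate the list median stood 0.19, 0.22 and 0.33 above the DMSO mean, all outside the DMSO range of -0.02 to 0.03. Gla, encoding alpha-galactosidase A, was at 6.55, 6.47 and 6.24 FPKM with DMSO and 9.54, 10.5 and 10.5 FPKM with RSL3 (0.59 ± 0.07, adjusted p = 0.00721). Its groups were well apart. The sialidase gene Neu1, which also rose, was at 8.41 to 9.16 FPKM with DMSO and 13.3 to 14.0 FPKM with RSL3. Leaving out RSL3 replicates 1, 2 and 3 gave 14, 9 and 4 that rose, leaving out DMSO replicates 1, 2 and 3 gave 4, 4 and 2, and quantile normalization gave 15. Over all genes 520, 290 and 56 rose without RSL3 replicates 1, 2 and 3. Without DMSO replicates 1, 2 and 3 the whole table had 60, 59 and 47 that rose. With quantile normalization 350 genes rose, against 261 of 10590 in the main fit. With length and GC trends removed 10 rose and 1 fell, Gusb, which encodes beta-glucuronidase and was named after its values were seen. That fit had 4.11% of all genes higher and 7.96% lower. The same RSL3 libraries held less of the liver markers and more of Gm26917 and Gm42418, whose part in this list was not tested.

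**Figure D4:**
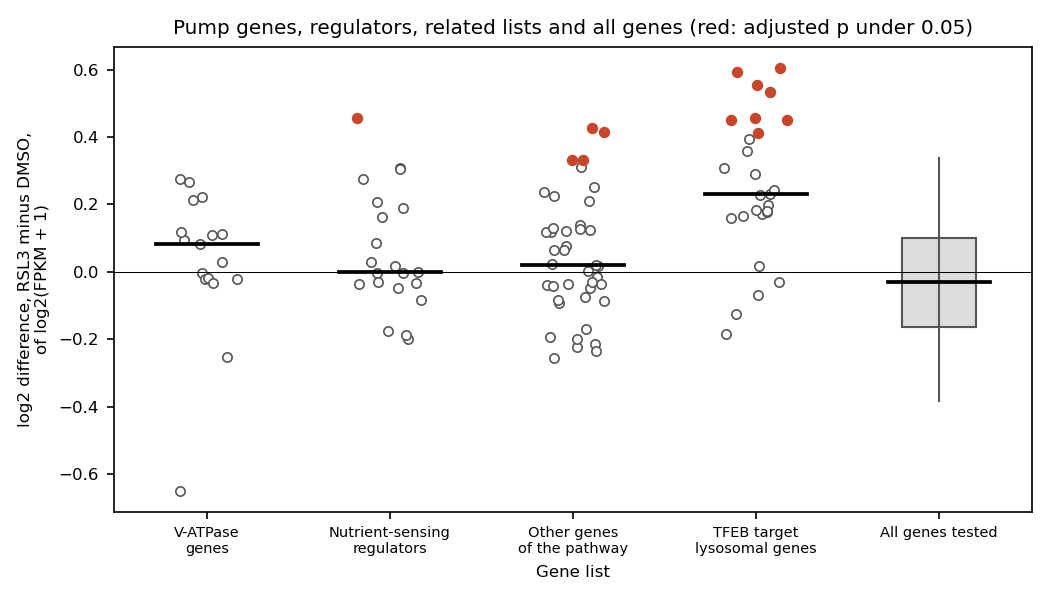
Log2 differences (RSL3 minus DMSO) of the genes in each list, with 1 point per gene, a bar at the list median, filled red where the gene passed, and all tested genes as a box (percentiles 25 to 75, line from percentile 5 to 95). The lysosomal TFEB targets have a median of 0.23, and the V-ATPase genes and the regulators medians of 0.081 and 0.00.

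Pump genes and lysosomal targets can be set side by side. Of the 17 V-ATPase genes 2 had every RSL3 library above every control, and of the 27 lysosomal targets 18, where 13.4% of all genes tested did. Every RSL3 library was below every control for 1 of the 17 and 2 of the 27, against 19.6% of all genes. Both lists are compared with the same DMSO libraries, and the difference between them was not tested.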

How the data were processed

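Each of the 6 libraries had 3 deposited tables. The mRNA and lncRNA values are FPKM as deposited, and per the submitters' processing notes the tools were cutadapt, HISAT2 and StringTie 1.3.3 on GRCm38. The filters and the annotation release are not named there. The circRNA values are a signal as deposited, under a CPM heading per the file headers, and 100% of the values above 0 were whole multiples of the library's smallest value within 0.01. Per the labels' protocols, RNA was isolated with TRIzol, a poly(A) module was used to remove ribosomal RNA, and a stranded kit made the libraries. Depth is unknown from FPKM.

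The groups were compared with limma 3.58.1 in R 4.3.3, two-sided and with a mean-variance trend, on the log2(FPKM + 1) scale. Genes entered the test when 3 or more libraries reached 1 FPKM, with Benjamini-Hochberg adjustment over all genes tested and a threshold of 0.05. The fit was tested on simulated data of 10590 genes, where it recovered 56% of changes of 0.5 and 85% of changes of 1 on the log2 scale, with 7 false and 141 true calls. The noise was drawn for each gene by itself, and changes were planted in better expressed genes only. Trends shared by many genes, such as those with GC content, were not simulated. Paralog shares used exact permutation tests. Positions, lengths and GC content are from GENCODE M21, promoters from RefSeq (GRCm38.p6).

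The genes, lists and tests were chosen with earlier results of these data known. Values of every library are printed for genes that passed and for a set of genes named by role, and for Atp6v0a1, chosen after its values were seen, those of other genes as means or ranges, and from other lists up to 3 that passed with the smallest p, of which 1 gene is not reported here. Alternatives were other pseudocounts, filters and scalings, no trend, a replicate block, removal of length and GC trends, and each library left out.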

Additional observations from a re-analysis of the deposited data

How the results depend on the processing

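Under each of the 16 alternatives that gave them a value (15 for Atp6v0a2 and Tfeb, which are under the stricter filter), 17 of the 38 genes kept a log2 difference above 0 and 6 one below 0, and the other 15, all within 0.0841 of 0 with all libraries, changed sign at least once. Without single libraries the genes of the whole table that rose numbered 47 to 520 and those that fell 84 to 756, and of the pump and sensor genes 0 to 5 rose and 0 to 1 fell. The median of V0 genes then ran from 0.006 to 0.1328 and that of the folliculin complex from 0.0716 to 0.35. Single genes that changed sign were Atp6v0c (-0.3673 to 0.2673), Atp6v0d1 (-0.0723 to 0.0507), Atp6v1c1 (-0.1271 to 0.108), Atp6v1e1 (-0.1025 to 0.0441), Atp6v1g1 (-0.0912 to 0.0257), Lamtor2 (-0.1849 to 0.0663), Lamtor3 (-0.0431 to 0.0348), Lamtor4 (-0.0968 to 0.0195), Lamtor5 (-0.0904 to 0.042), Rraga (-0.0567 to 0.0555), Rptor (-0.0864 to 0.031), Mlst8 (-0.0159 to 0.0436) and Slc38a9 (-0.0458 to 0.0748), and the share of Rragd in its pair (-0.334 to 2.17 percentage points). With median-ratio scaling 0 of the genes rose, and Atp6v0c stood at 0.0288, Atp6v0d1 at 0.0098, Atp6v1c1 at 0.0121, Atp6v1g1 at 0.0105, Lamtor3 at 0.0242, Lamtor4 at 0.0002 and Rraga at 0.0264. Quantile normalization gave 350 genes higher and 329 lower over the table, against 261 and 415. It put the medians at 0.1079 for V0, 0.0217 for Ragulator, 0.0449 for the regulators and 0.0873 for all 38, and Atp6v0c at 0.0408, Atp6v0d1 at 0.0838, Atp6v1c1 at 0.0316, Atp6v1e1 at 0.0131, Atp6v1g1 at 0.0908, Lamtor3 at 0.0217, Lamtor4 at 0.0132, Lamtor5 at 0.0513 and Rraga at 0.0449. Removing length and GC trends gave 435 higher and 843 lower over the table, 3 and 2 of the genes, medians of 0.062 for Ragulator, -0.1467 for the mTORC1 core and -0.0966 for TFEB and TFE3, and Atp6v0e2 at -0.0019, Atp6v1c1 at 0.0276, Atp6v1g1 at 0.082, Lamtor2 at 0.0162, Lamtor3 at 0.062, Lamtor5 at 0.0986, Rraga at 0.042, Mlst8 at -0.0563 and Tfe3 at -0.0198. The replicate block added to this removal left these log2 differences as they were and called 211 higher and 414 lower over the table and 1 of the genes, Lamtor1, so that the calls of Atp6v1d, Atp6v1h, Atp6v0a1 and Mtor were lost. Slc38a9 was at -0.0026 with 0.1 FPKM added and at -0.0005 with 0.5. Same-numbered libraries deviated together at -0.15, 0.05 and -0.06, and differently numbered ones at -0.16 to 0.17. These correlations cannot settle whether same-numbered libraries were paired, and the labels state no pairing. The replicate block gave 88 higher and 165 lower over the table and 0 of the genes (Lamtor1 adjusted p = 0.0756). With the block 5 lysosomal TFEB targets rose, and 0 of the other genes of the pathway and 0 neuronal markers passed. The cause of these changes was not tested. The paralog pair with Atp6v1g2 could not be computed, and FPKM without depth limits what can be said of genes near 1 FPKM.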

Other observations

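Back-spliced circular RNAs named by coordinates, 1414 of the 3168 in the tables, were placed in genes, and 4 lay within the pump and sensor genes. The one in Atp6v1h (chr1:5089009-5150061, plus strand, GRCm38) had 3, 1 and 0 reads with DMSO and 1, 0 and 4 reads with RSL3. The one in Fnip1 (chr11:54466087-54475766, plus strand) had 0, 2 and 2 reads with DMSO and 0, 0 and 2 reads with RSL3. Circles in Atp6v0a1 (chr11:101048418-101055605) and Rptor (chr11:119798769-119817179) were each seen in 1 library, with 4 reads in DMSO replicate 3 and 3 reads in RSL3 replicate 3. Total back-splice reads ran from 7179 to 9409 with DMSO and from 5226 to 7364 with RSL3. The few reads in circles of these genes cannot decide whether the groups differed. Over all 1662 circRNAs tested 0 passed in limma and 129 had an unadjusted p under 0.05, and edgeR 4.0.16 on the recovered reads, chosen after seeing the data, called 1 and had 108. In edgeR the circles in Atp6v1h and Fnip1 had log2 differences of 0.69 and -0.66 (adjusted p = 0.983 for each). Those in Atp6v0a1 and Rptor were not tested.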
